A study of Mus musculus with 46 samples.

Results

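Promoter-promoter interactions of mouse liver were examined, that is, contacts between 2 restriction fragments that both carry an annotated promoter. In promoter capture Hi-C (PCHi-C), DNA fragments that lie close together in the nucleus are joined, and RNA baits then pull out the HindIII fragments that hold promoters. The authors listed, for each diet, the interactions whose CHiCAGO score reached 5 within 1 Mb, a score that weighs how far the read pairs between 2 fragments exceed the number expected at their distance. The members were chosen by these scores: both ends had to be bait fragments, the interaction had to be in the lists of both diets, and its score had to be below 20 on at least 1 diet. This rule kept 12989 of the 195691 distinct interactions in either list (6.64%), and 12989 of the 23981 that joined 2 baits. Male C57BL/6 mice arrived at 5 weeks of age and were fed for 20 weeks a lipid-rich diet (LD, 60% of energy from lipid, labelled as high fat) or a carbohydrate-rich diet (CD, 70% of energy from carbohydrate, labelled as low fat). Mice of both groups also had glucose and insulin tolerance tests, with injections after fasting, late in the feeding. The study does not say whether the sequenced mice were among them. RNA was sequenced from whole liver of 5 mice per diet after depletion of ribosomal RNA, and the members' ends were also compared with ChIP-seq of H3K27ac (3 samples per diet) and of Hnf4α and C/EBPα (2 samples of each per diet) and with Hi-C domains. The 2 PCHi-C replicates of a diet were pooled before scoring, so that a score has no spread between animals.

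A promoter is the stretch before a gene where RNA polymerase II is assembled. In the nucleus, promoters of different genes can lie next to each other, both within clusters of related genes that share regulatory DNA and at sites where several active genes gather, and such contacts are found mostly inside topologically associated domains (TADs), the blocks of chromosome that fold onto themselves. H3K27ac is the histone mark of active promoters and enhancers, and Hnf4α and C/EBPα are transcription factors that bind many liver genes. The question asked of these data was whether the genes at the ends of a listed contact had more similar RNA levels, and changed more alike between diets, than promoters at the same distance that were not listed as a contact.

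Each end is a fragment cut at the HindIII site, and the first 30 bases of both ends of the pair Pnpla5 and Pnpla3 show what such an end looks like. They lie at chr15:83943471-83943500 and chr15:83995087-83995116 on the forward strand of mm9 (read from the NCBIM37 assembly), and the capitals mark the bases left by the enzyme, which stood at the start of all 17705 bait fragments.
Pnpla5 fragment end: AGCTTcctgagtgaggagttgagctcagag
Pnpla3 fragment end: AGCTTggacagcctccctgctatcatggag

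The 250 bases before the annotated start of the gene are shown for 4 linked pairs that the results turn on, each read 5′ to 3′ on the strand of its gene. Capitals mark matches, on either strand, to any of 5 consensus strings: the TATA box TATAAA, the CCAAT box CCAAT, the E-box CACGTG that Mlxipl and SREBP proteins can bind, the C/EBP site TTGCNNAA and the Hnf4α site CAAAGTNCA. Matches to different strings did not overlap in the promoters shown. The first pair holds the lipase-family genes that fell most together on LD, Pnpla5 (chr15:83953606-83953855, reverse strand) and Pnpla3 (chr15:83997996-83998245, forward strand).
Pnpla5: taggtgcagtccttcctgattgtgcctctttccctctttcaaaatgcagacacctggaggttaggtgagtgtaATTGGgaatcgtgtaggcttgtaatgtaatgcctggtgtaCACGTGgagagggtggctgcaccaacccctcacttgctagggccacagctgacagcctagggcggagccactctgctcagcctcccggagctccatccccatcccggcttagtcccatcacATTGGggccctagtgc
Pnpla3: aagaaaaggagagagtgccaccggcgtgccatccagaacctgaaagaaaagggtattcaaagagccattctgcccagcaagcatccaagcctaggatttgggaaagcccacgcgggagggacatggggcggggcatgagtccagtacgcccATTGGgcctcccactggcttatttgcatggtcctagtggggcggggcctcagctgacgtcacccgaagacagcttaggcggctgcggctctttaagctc
The serum amyloid A genes Saa3 (chr7:53971047-53971296, reverse strand) and Saa2 (chr7:54006953-54007202, forward strand) rose together on LD and each hold a C/EBP string.
Saa3: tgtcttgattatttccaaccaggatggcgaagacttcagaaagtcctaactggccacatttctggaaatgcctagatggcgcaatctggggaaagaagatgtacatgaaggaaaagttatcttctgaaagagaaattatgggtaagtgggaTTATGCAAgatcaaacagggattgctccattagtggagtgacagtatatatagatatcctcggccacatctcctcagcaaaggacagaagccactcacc
Saa2: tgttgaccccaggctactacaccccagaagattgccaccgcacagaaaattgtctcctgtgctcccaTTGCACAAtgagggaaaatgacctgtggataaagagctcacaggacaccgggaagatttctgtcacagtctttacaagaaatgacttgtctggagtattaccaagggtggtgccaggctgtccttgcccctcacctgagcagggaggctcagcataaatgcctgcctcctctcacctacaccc
The histone genes Hist1h2bm (chr13:21813663-21813912, forward strand) and Hist1h2bn (chr13:21845742-21845991, forward strand) stand for the largest group of linked paralogs that changed with the diet, and both hold several CCAAT boxes.
Hist1h2bm: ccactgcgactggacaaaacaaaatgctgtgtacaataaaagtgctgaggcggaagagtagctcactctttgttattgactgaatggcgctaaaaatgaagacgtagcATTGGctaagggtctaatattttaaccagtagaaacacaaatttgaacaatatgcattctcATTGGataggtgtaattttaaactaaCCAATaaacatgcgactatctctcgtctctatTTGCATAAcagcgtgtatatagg
Hist1h2bn: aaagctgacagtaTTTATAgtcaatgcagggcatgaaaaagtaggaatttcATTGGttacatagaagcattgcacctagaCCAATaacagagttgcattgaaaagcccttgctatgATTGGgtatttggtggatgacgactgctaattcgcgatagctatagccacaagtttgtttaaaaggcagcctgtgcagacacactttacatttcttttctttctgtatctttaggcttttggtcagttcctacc
Unrelated genes far apart are shown by Mcm2 (chr6:88848775-88849024, reverse strand) and Chchd6 (chr6:89545647-89545896, reverse strand), which rose together across a domain border.
Mcm2: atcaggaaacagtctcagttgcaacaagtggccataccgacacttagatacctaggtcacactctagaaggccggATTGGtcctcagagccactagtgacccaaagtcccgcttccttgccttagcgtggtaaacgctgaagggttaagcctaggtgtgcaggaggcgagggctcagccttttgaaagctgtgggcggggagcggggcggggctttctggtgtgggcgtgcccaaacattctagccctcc
Chchd6: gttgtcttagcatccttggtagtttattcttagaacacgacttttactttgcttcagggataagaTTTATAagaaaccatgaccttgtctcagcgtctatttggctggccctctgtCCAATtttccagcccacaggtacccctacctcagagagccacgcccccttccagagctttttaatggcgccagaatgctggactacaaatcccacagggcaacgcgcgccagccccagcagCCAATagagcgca

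These strings were common in promoters at large. Among 13944 genes at baits, CCAAT was in 35.1% of the 250-base windows, TATAAA in 11.1%, TTGCNNAA in 8.61%, CACGTG in 7.12% and CAAAGTNCA in 1.12%. Among the 8141 distinct genes at the ends of linked pairs the shares were 35.0%, 11.7%, 8.49%, 7.17% and 1.14% in the same order. A match is a description of the sequence only.

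Between 31707963 and 39012699 read pairs were counted on genes per mouse. The summed TPM (transcript abundance scaled to gene length and library size) of 10 hepatocyte markers lay between 94066 and 109689 in all 10 mice. The sums of 10 endothelial markers (333 to 463 TPM on LD, 377 to 436 on CD) and 10 lymphocyte markers (8.88 to 18.9 and 8.52 to 10.8) overlapped between diets. Sums for 4 other cell types reached higher on LD, those of macrophages with an overlap between diets: 14 macrophage markers ranged from 899 to 1995 TPM on LD and from 544 to 1022 on CD, 11 stellate cell markers from 357 to 592 and from 289 to 333, 7 cholangiocyte markers from 51.7 to 149 and from 19.6 to 35.3, and 6 adipocyte markers, of which Lep and Plin1 were at 0, from 9.18 to 84.7 and from 0.189 to 2.68. LD mouse 2 stood apart with the highest macrophage sum (1995 TPM). A CD column of the TPM table carries a number that no label has, and it was used as a CD mouse without a number. TPM values are listed below in the order of that table, 5 mice per diet.

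Scores of the linked pairs were modest, as the rule required. The median was 8.27 on LD and 8.05 on CD, and the highest were 40.62 and 33.82. Of the 12989 pairs, 12476 were below 20 on both diets, 251 only on LD and 262 only on CD. Just inside the lower threshold lay Snord87 with Ppp1r42 (6.65 on LD and 5 on CD) and Fev with Ccdc108 (6.31 and 5). Near the upper threshold, Ube2e1 with a U1 RNA gene (25.45 and 19.98) and Fgd3-001 with Ippk (19.98 and 24.81) were inside, and Metap1 with Eif4e, both used in protein synthesis (20.69 and 20), and Slc36a1 with Gm12238 (20.01 and 23.02) were outside. Among pairs with an RNA row at both ends, the highest lower score of the diets was that of Creld2 with Selo (19.97 and 25.32, 271 kb apart). Next came Als2cr11 with Cdk15 (26.82 and 19.78), Krt28 with Krtap16-1 (19.78 and 27.44), the leukocyte genes Arhgap30 with Cd244 (19.77 and 20.71) and the epidermal genes Lce1c with Lce1d (19.85 and 19.77). These highest-scoring pairs ranged from expressed to silent: Lce1c, Lce1d and Krtap16-1 were at 0 TPM in all 10 mice, while Selo, a mitochondrial pseudokinase, had means of 76.7 ± 6.45 TPM on LD and 88.0 ± 6.44 on CD (SD, n = 5).

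The linked promoters were a median of 198 kb apart, with a range from 3.51 to 1006.79 kb, and 5% of pairs lay within 25.4 kb. Other promoters usually lay between them. Only 1885 pairs (14.5%) had no bait in between, and the median number of baits skipped was 3. The 12989 pairs used 10031 of the 17705 baits seen in either list. Of these, 4749 had 1 linked partner, 2221 had 2 and 338 had at least 10.

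Joined end to end, the linked baits formed 1392 separate groups. The smallest, 480 of them, were single pairs, and 16.3% of triples of baits joined through a shared partner were closed into a triangle (3309 triangles). The largest group spanned chr7:109391709-112965491 and held 110 baits joined by 196 pairs, most of them olfactory receptor genes, and only 16 of its 103 baits with an RNA row reached 1 TPM. The keratin and keratin-associated protein cluster at chr11:98782480-100182693 held 75 baits with 344 pairs, and 5 of 56 reached 1 TPM. Other large groups held more expressed genes: at chr11:68697640-70833705, around Polr2a and Eif4a1, 41 of 63 baits reached 1 TPM, and at chr10:79165124-83011401, around Gpx4 and Eef2, 42 of 62 did, while at chr7:147123673-148672811 it was 28 of 61.

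The baits with the most partners showed both kinds. Of the 5 with the most, 4 lay in the keratin cluster: Gm14180-001 with 46 partners, Gm14183-001 with 41, Krtap16-1 with 41 and Gm14185-001 with 32. Nearly all of their partners were silent, with 33 of 35, 29 of 31, 31 of 32 and 24 of 25 below 1 TPM, and none of the 4 baits carried H3K27ac in any of the 6 samples. The other was Tomm40, the import pore of the mitochondrial outer membrane, at chr7:20298273-20301954. It had 36 partners, up to 727 kb away, a mean of 27.1 TPM and H3K27ac in 6 of 6 samples, and 22 of its 32 partners with an RNA row reached 1 TPM. Its partners included Apoc1, Bcl3 and Relb. Tomm40 itself differed by 0.02 on the log2 scale between diets.

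RNA levels could be compared for 9140 linked pairs, because 3844 had an end without a row in the RNA table and 5 had the same gene at both ends. They were set against 149429 unlinked pairs, which are all pairs of baits on a chromosome within the listed distance that had no line in either list, weighted in 20 kb steps to the distances of the linked pairs. Linked promoters were more often expressed together. Both genes had a mean of at least 1 TPM in 4128 of 9140 linked pairs (45.2%, 95% Wilson interval 44.1 to 46.2, which covers counting error only) and in 35.4% of unlinked pairs. Pairs with 1 expressed and 1 silent gene were fewer, 2899 (31.7%) against 41.0%, and pairs with both silent were about as frequent, 2113 (23.1%) against 23.6%. Single ends were also more often expressed, 61.0% against 55.9%.

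The excess of pairs with both genes expressed appeared in each mouse. It lay between 9.29 and 9.89 percentage points, with 43.3% to 45.9% of linked and 33.6% to 36.5% of unlinked pairs, and the linked value was the higher in 10 of 10 mice. Across pairs, the correlation of log2(TPM + 1) between the ends was 0.266 for linked and 0.128 for unlinked pairs, and within single mice 0.255 to 0.271 and 0.123 to 0.131. The median difference in level between the ends was 1.74 and 2.02 on that log2 scale. These values describe pairs that share baits and the same 10 libraries, and no test across pairs was made.

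**Figure D1:**
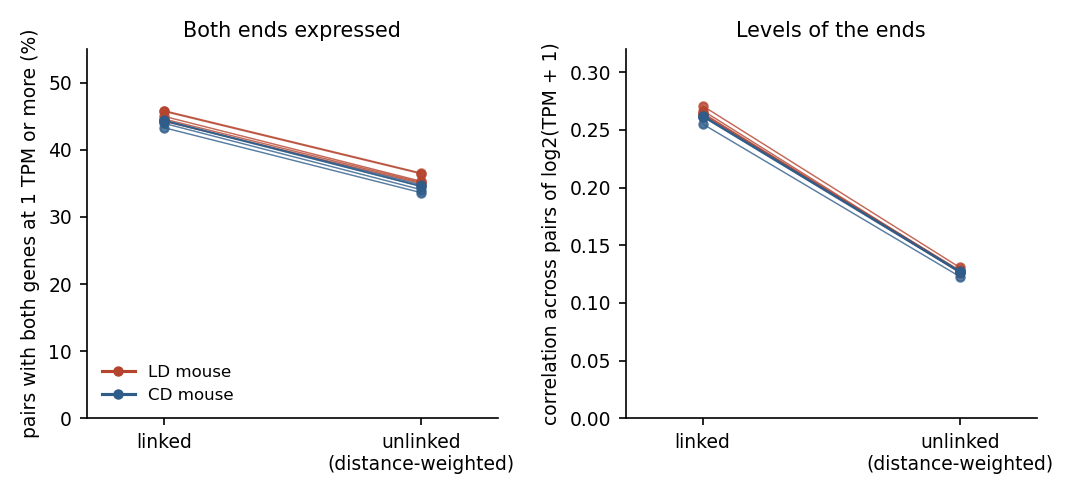
Share of promoter pairs with both genes at 1 TPM or more (left, percent) and correlation of log2(TPM + 1) between the ends across pairs (right), for 9140 linked pairs and the distance-weighted unlinked pairs. Each line is 1 of 10 mice, red for LD and blue for CD, and every line falls from linked to unlinked, from 43.3% to 45.9% down to 33.6% to 36.5% on the left.

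Similar levels extended to the longest distances. For pairs under 50 kb apart, the correlation of levels was 0.305 in linked and 0.221 in unlinked pairs. From 200 to 400 kb it was 0.252 and 0.0988, and over 400 kb it was 0.347 and 0.0665, or 0.236 and 0.00796 without pairs of 1 family. The share with both genes expressed was 42.7% against 38.1% under 50 kb, 47.2% against 35.1% from 100 to 200 kb, and 43.7% against 34.3% over 400 kb. Linked pairs that crossed a TAD border of the LD list (3988 pairs) had both genes expressed in 49.7% against 37.0% of unlinked pairs, and a correlation of 0.183 against 0.0244. Inside a single TAD (5152 pairs) the share was 41.7% against 30.8%, whereas the correlation was 0.318 against 0.303, a gap of 0.0149. The median difference in level was larger in linked than in unlinked pairs inside a TAD (1.55 against 1.16 on the log2 scale) and from 50 to 100 kb (2.01 against 1.86), and smaller across TADs (1.92 against 2.36).

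**Figure D2:**
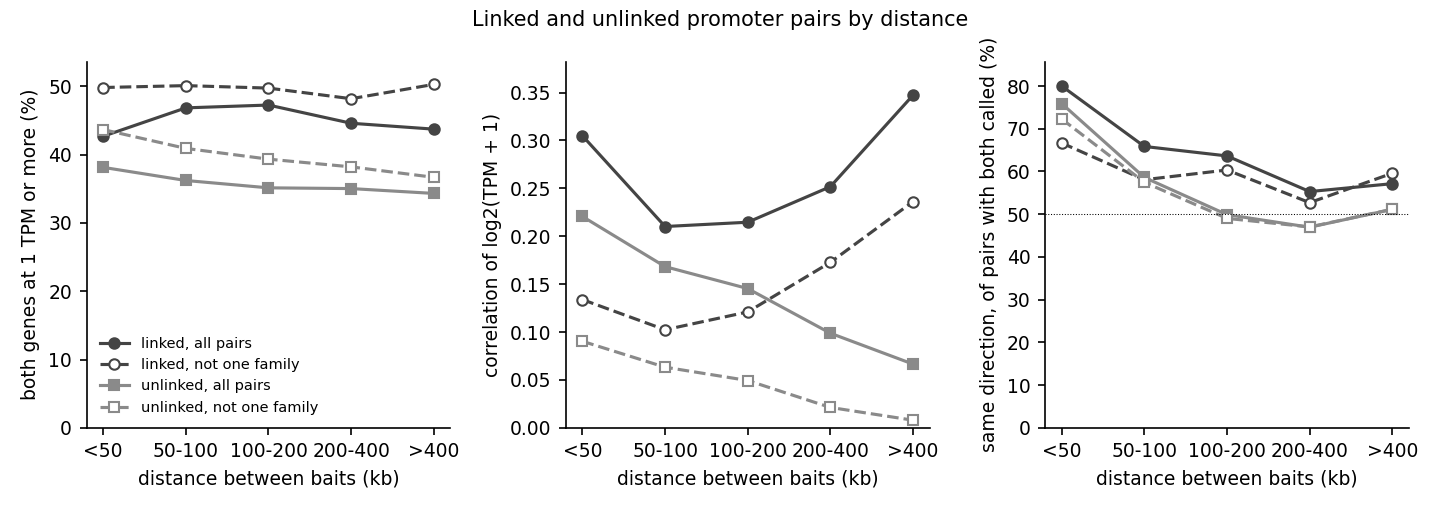
Linked (circles) and unlinked (squares) promoter pairs by distance in kb, with all pairs as filled and pairs not of 1 gene family as open symbols, and panels that give from left to right the percent of pairs with both genes at 1 TPM or more, the correlation of log2(TPM + 1) between the ends, and the percent changed in the same direction among pairs with both genes called (dotted line at 50%). Over 400 kb the correlation was 0.347 for linked and 0.0665 for unlinked pairs.

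Paralogs in clusters made up part of the linked pairs. Genes whose symbols share all letters before the first digit, of which there must be at least 3, were counted as 1 family, a rule that misses paralogs such as Ms4a6c with Ms4a6b or Fgg with Fgb, and 1260 linked pairs (13.8%) joined 2 genes of a family, against 10.9% of unlinked pairs. They came from 98 families, and 883 of them from the 3 largest. Most were silent in liver, with 936 of the 1260 below 1 TPM at both ends and 231 at 1 TPM or more at both. Olfactory receptor genes gave 688 pairs between 441 genes, of which 684 had both ends below 1 TPM. Keratin genes gave 33 pairs with a median distance of 662 kb, keratin-associated protein genes 34 and kallikrein genes 24, and no pair of these had both ends at 1 TPM. Zinc finger genes of the Zfp series gave 88 pairs with 66 expressed at both ends, and the liver-expressed Serpina and Ces clusters gave 15 and 12 pairs with 5 and 9 expressed at both ends. Without pairs of 1 family, 49.5% of 7880 linked and 39.1% of unlinked pairs had both genes expressed, and the correlation of levels was 0.160 and 0.0400.

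Active chromatin lay at both ends more often in linked pairs. H3K27ac overlapped both fragments in 52.6% to 56.5% of linked and 44.1% to 49.1% of unlinked pairs over the 6 samples, a difference of 7.42 to 8.58 percentage points that had the same sign in 6 of 6. Hnf4α peaks were at both ends in 16.0% to 22.6% against 12.7% to 18.3% in 4 samples, and C/EBPα peaks in 12.4% to 15.4% against 10.3% to 13.1%. For both factors the linked value was the higher in 4 of 4 samples. LD samples had H3K27ac at both ends in 55.8% to 56.5% of linked pairs and CD samples in 52.6% to 54.9%, with no overlap, and unlinked pairs moved the same way (48.1% to 49.1% and 44.1% to 47.1%). The diets overlapped for both factors, and 1 CD sample had the highest share for Hnf4α (22.6%).

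The mark and the RNA of the ends went together. In 4623 linked pairs (50.6%) both ends carried H3K27ac in all 6 samples, and in 81.5% of these both genes reached 1 TPM. In 1543 pairs (16.9%) neither end carried it in any sample, and 95.5% of these had both genes below 1 TPM. The other large class, 1764 pairs (19.3%), joined an end marked in all samples with an end marked in none, and 7.71% of these had both genes at 1 TPM.

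Linked promoters shared a TAD more often than unlinked promoters at the same distance, but scores and TADs are not independent readouts. The paper describes capturing promoters from Hi-C libraries, and the TADs were called on Hi-C. A high score and a TAD both stand for raised contact, so that some excess is built into the comparison. How much of it goes beyond this was not tested. In the LD list of 5912 TADs, 7354 of 12989 pairs (56.6%) lay inside 1 TAD against 36.6% of unlinked pairs, and with the 5776 TADs of CD it was 7313 pairs (56.3%) against 36.6%. Under 50 kb the shares were 92.2% and 85.6% for LD. They were 73.5% and 44.6% from 100 to 200 kb and 17.1% and 5.99% over 400 kb.

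**Figure D3:**
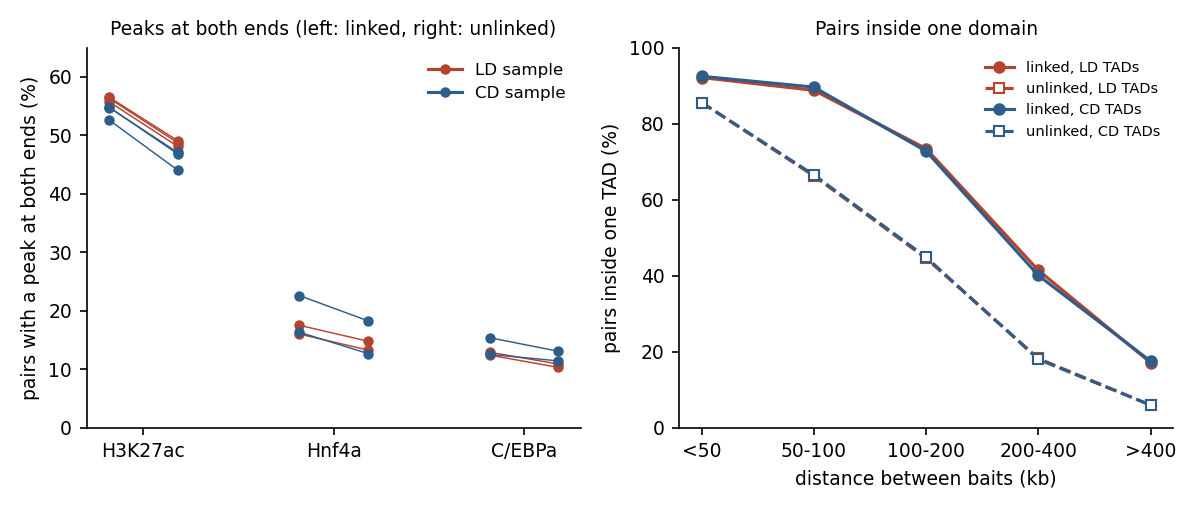
Left, percent of promoter pairs with a peak at both ends, 1 line per ChIP-seq sample from linked (left point) to unlinked pairs (right point). Right, percent of pairs inside a single TAD by distance in kb for linked (circles) and unlinked (squares) pairs with the LD (red) or CD (blue) TAD list; from 100 to 200 kb it was 73.5% for linked and 44.6% for unlinked pairs with LD TADs.

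Genes at linked promoters changed between diets about as often as other genes. Of 5483 distinct genes tested by edgeR's quasi-likelihood test, 1392 (25.4%) passed both thresholds (p adjusted by Benjamini-Hochberg under 0.05, fold change over 1.2), against 24.9% of all 13494 rows tested. Higher on LD were 756 (13.8% of those tested, against 13.8% of all rows) and lower 636 (11.6%, against 11.1%). On log2(TPM + 1), limma called 909 higher and 290 lower, so that 75.8% of calls were higher on that scale and 54.3% on counts. Without LD mouse 2, 734 were higher and 594 lower. In bulk liver RNA, fewer cells of a type and less RNA per cell cannot be told apart. The sums of macrophage, stellate cell, cholangiocyte and adipocyte markers given above moved with the diet, and their part in these calls was not tested. A sum need not stand for each of its markers. Of the single markers tested, 4 of 14 for macrophages, 6 of 11 for stellate cells and 1 of 6 for cholangiocytes were called higher. The 1 adipocyte marker tested was also called higher, and 0 markers of these lists were called lower.

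Both genes of a linked pair seldom changed, and when they did they changed in the same direction more often than unlinked genes. Among 4817 linked pairs with both genes tested, 282 (5.85%, Wilson interval 5.23 to 6.55) had both genes called, against 6.69% of unlinked pairs, an order that turned without CD mouse 3 (5.76% against 5.64%), while 1781 had 1 gene called and 2754 none. The direction was shared in 175 of the 282 (62.1%, 56.3 to 67.5) and in 53.6% of unlinked pairs. The 282 pairs held 390 distinct genes, so that pairs shared genes. The intervals treat the pairs as separate, are therefore too narrow, and are no test against unlinked pairs. Both genes were higher on LD in 110 pairs and lower in 65, and the 107 others went opposite ways. When 1 gene was called higher, its linked partner was called lower in 8.12% of cases against 10.9% for unlinked partners, and called higher in 16.7% against 15.5%, an order that turned without pairs of 1 family (12.8% against 14.8%). When it was called lower, the partner was higher in 10.4% against 13.7% and lower in 12.7% against 12.2% (11.7% against 12.2% without pairs of 1 family). Across all pairs with both genes tested, the correlation of log2 fold changes was 0.0749 for linked and 0.0254 for unlinked pairs, or 0.0361 and 0.0207 with DESeq2.

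Pairs at short distance and pairs of 1 family most often shared their direction. Under 50 kb, 24 of 30 linked pairs with both genes called went the same way (80.0%), against 75.9% of unlinked pairs. The order turned without pairs of 1 family (12 of 18, 66.7%, against 72.3%) and in pairs with no bait between (22 of 37, 59.5%, against 66.1%). From 100 to 200 kb it was 63.6% against 49.9%, and over 400 kb 57.1% against 51.1%. Of pairs of 1 family, 43 of 54 (79.6%, 67.1 to 88.2) went the same way, against 83.8% of unlinked pairs of 1 family. Of these 43, 27 were pairs of histone genes from 1 cluster on chr13, in which 0 pairs were called opposite, so that the share leans on this cluster. Pairs not of 1 family by that rule went the same way in 132 of 228 cases (57.9%, 51.4 to 64.1), against 52.4%, and without pairs of 2 histone genes the shares were 58.0% and 53.3%. In pairs not of 1 family the correlation of fold changes was 0.0195 and 0.0105. The intervals in this paragraph also treat pairs that share genes as separate.

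**Figure D4:**
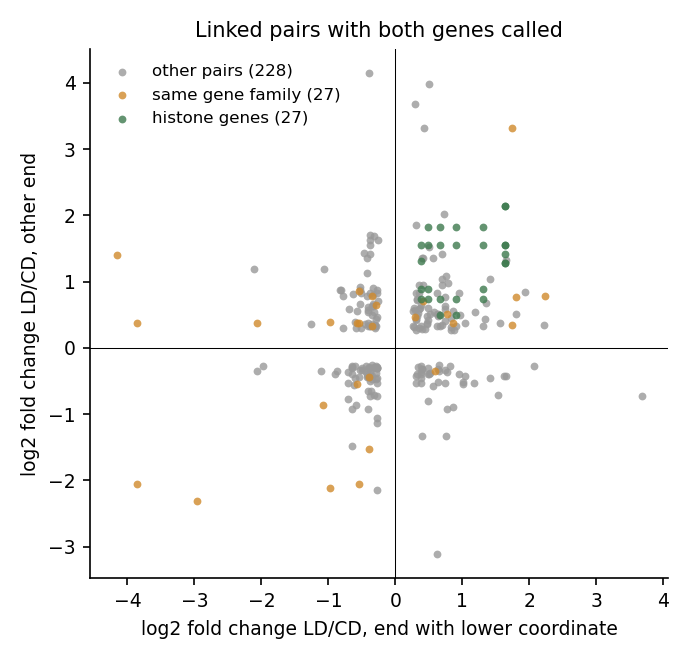
Log2 fold changes (LD over CD) of both genes in the 282 linked pairs with both genes called by edgeR, with the end of lower map position on the horizontal axis and green for 27 pairs of histone genes, orange for 27 other pairs of 1 family and grey for the 228 others. The 110 pairs in the upper right quadrant were higher and the 65 in the lower left lower on LD at both ends.

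Interactions outside the rule gave other values, listed here side by side. Bait-to-bait interactions listed on LD only (3867 compared) had both genes expressed in 40.1% and a shared direction in 58 of 101 pairs (57.4%, against 51.8% of their unlinked pairs). Those on CD only (3425 compared) had 40.7% and 47 of 96 (49.0%, against 51.2%). The 422 compared pairs with scores of 20 or more on both diets had 50.2% expressed at both ends, and 6 of 8 pairs went the same way, against 56.3% of their unlinked pairs.

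Among pairs called in the same direction with no overlap between diets, 79 had a mean of at least 1 TPM on a diet at both ends, and the largest shared change was in lipid genes. Pnpla5 and Pnpla3 encode patatin-like phospholipase proteins of lipid droplets, and the fragments that hold them lie 49.0 kb apart with no bait between (scores 7.08 and 6.73). Pnpla5 had 0.695, 0.522, 0.722, 1.07 and 1.32 TPM on LD and 11.7, 8.62, 3.18, 3.13 and 4.84 on CD. Pnpla3 had 0.936, 1.56, 1.88, 1.44 and 2.07 on LD and 11.0, 7.93, 5.53, 5.76 and 6.19 on CD. All LD mice lay below all CD mice for both genes, and the same CD mouse was highest for both. Pnpla5 fell by 2.97 ± 0.44 and Pnpla3 by 2.30 ± 0.25 on the log2 scale (SE, edgeR, adjusted p = 0.000773 and 0.000107). Both fragments carried H3K27ac in 6 of 6 samples and Hnf4α in 4 of 4, and the promoter of Pnpla5 shown above holds an E-box string that the promoter of Pnpla3 lacks in its window.

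Serum amyloid A genes, whose products are acute-phase proteins of plasma, rose in the same way. Saa3 and Saa2 lie 40.1 kb apart (scores 16.62 and 20.61). Saa3 had 48.5, 41.7, 25.4, 21.4 and 17.8 TPM on LD and 7.33, 10.1, 12, 5.15 and 9.25 on CD. Saa2 had 245, 200, 187, 205 and 178 on LD and 20.6, 19.6, 25.1, 8.4 and 22.7 on CD. The diets did not overlap for either gene, and LD mouse 1 was the highest for both. The log2 fold changes were 1.75 ± 0.31 and 3.32 ± 0.24 (SE, edgeR, adjusted p = 0.0022 and 2.01e-05). Saa2 was also linked over 731 kb to Abcc6, a liver transporter, which was not called (log2 fold change -0.26). Saa3 was linked to Saa4 at 19.6 kb, whose mean was 133 ± 17.2 TPM on LD and 98.8 ± 17.5 on CD (SD, n = 5) with overlapping diets. Saa4 was called higher, with a log2 fold change of 0.35 ± 0.12 (SE, edgeR, adjusted p = 0.0444). The Saa genes are close in sequence, so that their counts may share reads.

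Histone genes were the largest family with shared changes. The 107 linked pairs joined 27 genes of the histone cluster at chr13:21807357-23857922, over 7.73 to 325 kb, with scores from 5.02 to 27.06, and 90 lay inside 1 TAD of the LD list. Of the 26 genes tested, 15 were called higher on LD and 0 lower, beside 13.8% and 11.1% of all rows, with log2 fold changes from -0.17 to 2.14 and a median of 0.73. Both genes were tested in 95 pairs, and 27 of these were called higher at both ends. Hist1h2bm had 8.16, 14.7, 6.63, 9.97 and 9.53 TPM on LD and 3.02, 3.98, 3.05, 2.05 and 2.81 on CD, and its partner Hist1h2bn, 36.2 kb away, had 14.7, 22.7, 15.5, 15.7 and 14.3 on LD and 7.40, 5.57, 3.42, 7.29 and 3.39 on CD. LD mouse 2 was the highest for both genes, and the diets did not overlap. Their log2 fold changes were 1.64 ± 0.24 and 1.55 ± 0.25 (SE, edgeR, adjusted p = 0.000399 and 0.000623).

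The linker histone gene Hist1h1b, linked over 66.1 kb to Hist1h2bl, changed most in the cluster. It had 9.80, 16.0, 11.0, 12.3 and 14.1 TPM on LD and 3.4, 2.78, 2.49, 3.08 and 1.78 on CD, with no overlap, and a log2 fold change of 2.14 ± 0.19 (SE, edgeR, adjusted p = 1.27e-05). Hist1h2bl rose by 1.64 ± 0.27 (SE, edgeR, adjusted p = 0.00073). The pairs Hist1h3d with Hist1h3b (178 kb apart) and Hist1h4f with Hist1h4a (211 kb) were called higher at both ends, with log2 fold changes of 1.31 and 1.82, and of 0.90 and 1.55. Not every member of the cluster moved: Hist1h4h, the most abundant, had means of 296 ± 33.0 TPM on LD and 316 ± 26.7 on CD (SD, n = 5) and was not called, although it was linked to Hist1h3b over 224 kb. Histone messages are encoded by near-identical copies, so that reads may be split between genes, and most histone messages lack a poly(A) tail, which ribosomal RNA depletion does not select for.

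Unrelated genes also rose together over long distances. Mcm2, a subunit of the replicative DNA helicase, and Chchd6, a protein of mitochondrial cristae, lie 699 kb apart in different TADs with 5 baits between (scores 5.54 and 16.40). Mcm2 had 6.05, 8.88, 8.46, 6.30 and 10.2 TPM on LD and 2.23, 2.26, 2.77, 1.64 and 2.99 on CD. Chchd6 had 6.73, 5.67, 7.45, 7.19 and 7.92 on LD and 2.78, 2.81, 2.89, 1.65 and 2.92 on CD. LD mouse 5 was the highest and CD mouse 4 the lowest for both genes, and no LD value reached down to CD. The log2 fold changes were 1.66 ± 0.17 and 1.33 ± 0.17 (SE, edgeR, adjusted p = 3.44e-05 and 0.000125).

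Plce1, a phospholipase C, and Hells, a chromatin helicase of dividing cells, formed a similar pair, 407 kb apart in different TADs (scores 6.56 and 8.51). Plce1 had means of 5.77 ± 0.888 TPM on LD and 3.31 ± 0.527 on CD, and Hells 2.45 ± 0.884 and 0.568 ± 0.161 (SD, n = 5), both without overlap between diets. Their log2 fold changes were 0.72 ± 0.11 and 2.02 ± 0.26 (SE, edgeR, adjusted p = 0.000345 and 0.000143). H3K27ac lay at the Plce1 fragment in 0 of 6 samples and at the Hells fragment in 5.

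Leukocyte genes rose together as well. Ms4a6c and Ms4a6b, membrane proteins of leukocytes 46.9 kb apart (scores 24.65 and 18.17), had 6.89, 12.2, 4.85, 5.81 and 6.95 TPM and 5.71, 5.91, 3.73, 4.38 and 6.34 TPM on LD, against 2.55, 3.63, 2.45, 1.62 and 2.85 and 2.75, 1.76, 2.89, 2.04 and 2.51 on CD. The diets did not overlap for either gene. Ms4a6c was highest in LD mouse 2, the mouse with the highest macrophage sum, and both genes were called also when any 1 library was left out. The log2 fold changes were 1.41 ± 0.26 and 1.04 ± 0.18 (SE, edgeR, adjusted p = 0.00218 and 0.00108). Arhgap30 and Cd244, among the pairs with the highest scores, were both called higher too, with log2 fold changes of 0.70 and 1.41, and Cd244, a receptor of natural killer cells, reached 1.35 TPM in LD mouse 2 and 0.291 to 0.505 in the other LD mice, which overlapped with CD. The summed macrophage markers (899 to 1995 TPM on LD, 544 to 1022 on CD) moved with these genes, and their part in the changes was not tested.

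Several esterase, acetyltransferase and protease inhibitor pairs were called lower at both ends, although in the Ces family 1 pair was called lower at both ends and 1, Ces2a with Ces2e (log2 fold changes -0.97 and 0.39), in opposite directions. The carboxylesterase genes Ces2a and Ces4a, 396 kb apart in different TADs with 8 baits between (scores 6.14 and 11.40), had 113, 93.1, 81.0, 92.2 and 64.1 TPM and 0.442, 0.211, 0.359, 0.202 and 0.142 TPM on LD, against 156, 168, 178, 180 and 147 and 0.933, 1.26, 1.38, 1.27 and 0.773 on CD. All LD mice lay below all CD mice, at levels that differ widely between the genes. The log2 fold changes were -0.97 ± 0.14 and -2.11 ± 0.30 (SE, edgeR, adjusted p = 0.000384 and 0.000276). Nat8 and Nat8f1, acetyltransferases 82.4 kb apart (scores 11.57 and 10.36), fell by 1.08 ± 0.17 and 0.85 ± 0.13 on the log2 scale (SE, edgeR, adjusted p = 0.00074 and 0.00055), from means of 25.4 ± 2.76 to 12.6 ± 3.37 TPM and from 304 ± 23.3 to 176 ± 35.8 TPM (SD, n = 5). Serpina9 and Serpina3c, protease inhibitor genes 138 kb apart (scores 6.54 and 11.06), were low on both diets, at means of 1.09 ± 0.458 and 1.31 ± 1.07 TPM on CD and 0.0751 ± 0.0512 and 0.321 ± 0.159 TPM on LD (SD, n = 5), and were called lower on LD. Neither Serpina fragment carried H3K27ac in any of the 6 samples.

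**Figure D5:**
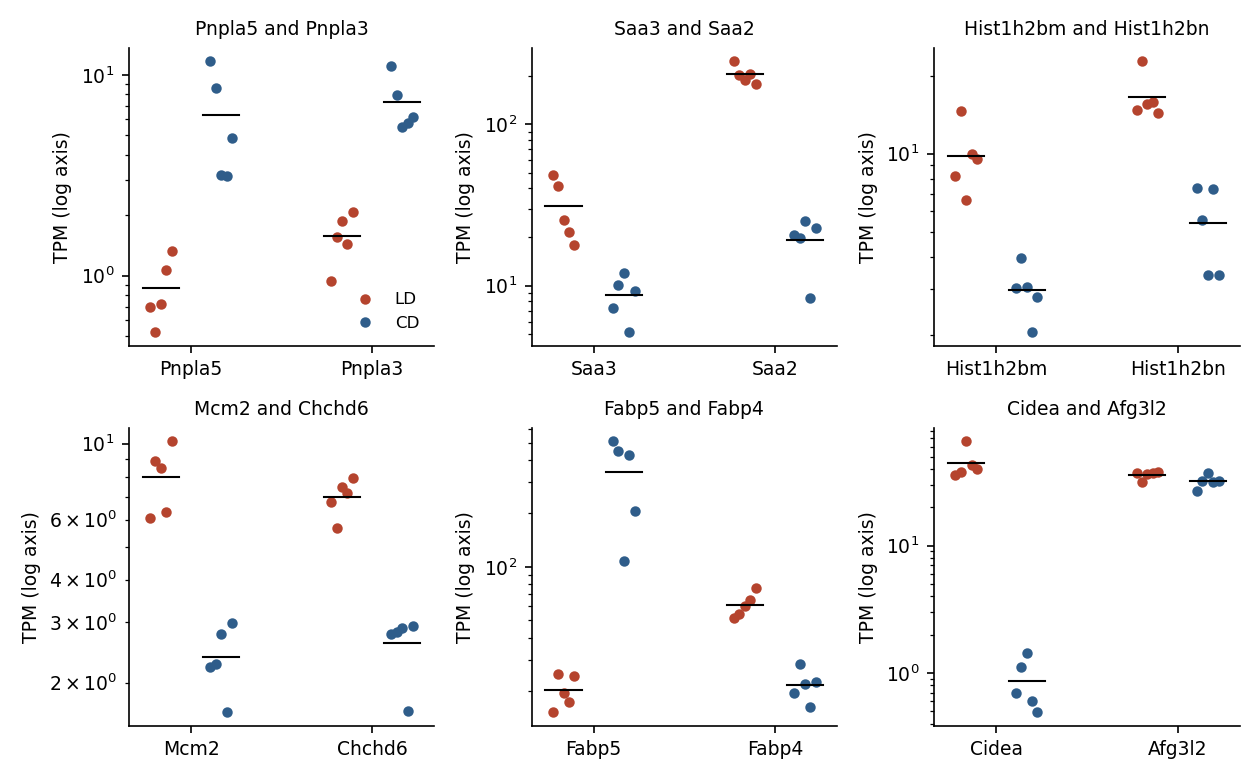
TPM (log axis) of both genes of 6 linked pairs in each of 5 LD (red) and 5 CD (blue) mice, with the mean as a bar. Pnpla5 with Pnpla3 lay lower on LD, Saa3 with Saa2, Hist1h2bm with Hist1h2bn and Mcm2 with Chchd6 higher at both ends, Fabp5 with Fabp4 opposite, and Cidea differed between diets while Afg3l2 overlapped.

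The 107 pairs called in opposite directions included related genes. Fabp5 and Fabp4 encode fatty acid binding proteins and lie 199.7 kb apart in 1 TAD (scores 8.31 and 6.84). Fabp5 had 15.2, 25.0, 19.5, 17.3 and 24.3 TPM on LD and 511, 450, 108, 426 and 207 on CD. Fabp4 had 51.5, 54.1, 59.9, 64.8 and 75.6 on LD and 19.4, 28.5, 22.0, 16.3 and 22.5 on CD. The diets were separate for both genes in opposite orders, with log2 fold changes of -4.16 ± 0.46 for Fabp5 and 1.41 ± 0.13 for Fabp4 (SE, edgeR, adjusted p = 0.000367 and 1.86e-05). Both fragments carried H3K27ac in 6 of 6 samples and neither factor in any sample. Fabp4 is also an adipocyte gene, and the adipocyte sum was also higher on LD (9.18 to 84.7 TPM, and 0.189 to 2.68 on CD). Within LD the sum was 77.1, 84.7, 37.7, 35.4 and 9.18 TPM in the order of the mice above. The part of adipocytes in the difference was not tested.

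Other opposite pairs joined unrelated genes. Bmf, which promotes apoptosis, was lower on LD (4.04 ± 0.904 against 8.03 ± 2.12 TPM, SD, n = 5), and Bub1b, a kinase of the spindle checkpoint 45.9 kb away, was higher (1.73 ± 0.446 against 0.712 ± 0.186), with log2 fold changes of -1.07 and 1.2. Scamp5, a protein of secretory vesicles, rose by 0.85 ± 0.10 while Cyp1a2, a drug-metabolising P450 of hepatocytes 216 kb away, fell by 0.90 ± 0.11 on the log2 scale (SE, edgeR, adjusted p = 7.63e-05 and 0.000107). Cyp1a2 had 142, 126, 114, 146 and 107 TPM on LD and 208, 198, 231, 254 and 234 on CD. No LD mouse reached the lowest CD mouse.

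Genes of lipid synthesis at linked promoters mostly fell. Of 9 tested, 5 were called lower and 1 higher on LD, and the median log2 fold change was -0.78 against -0.0019 over all rows tested, of which 24.9% were called. In 3 of their linked pairs the partner was called in the same direction and in 1, Acss2 with Gss (log2 fold changes -0.78 and 0.79), in the other. Mlxipl, the carbohydrate-responsive transcription factor ChREBP, fell by 1.06 ± 0.09 on the log2 scale, and its linked partner Cldn3, a tight junction protein 121 kb away, fell by 0.28 ± 0.08 (SE, edgeR, adjusted p = 8.57e-06 and 0.0178). Mlxipl had 22.7, 16.3, 21.6, 19.98 and 23.4 TPM on LD and 34.3, 40.1, 43.5, 47.4 and 40.3 on CD, with no overlap, whereas the diets overlapped for Cldn3. The elongase gene Elovl6 and the aminopeptidase gene Enpep, 202 kb apart with no bait between and in different TADs, fell by 0.85 ± 0.12 and 0.58 ± 0.07 (SE, edgeR, adjusted p = 0.000247 and 0.000104). Enpep had 54.1, 48.9, 54.0, 57.2 and 50.3 TPM on LD and 71.7, 80.3, 77.4, 75.3 and 72.3 on CD, and Elovl6 had means of 81.8 ± 15.7 and 139 ± 17.2 (SD, n = 5), both without overlap.

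Fatty acid oxidation genes at linked promoters rose. Of 11 tested, 10 were called higher and 0 lower (median log2 fold change 0.51), beside 13.8% of all rows called higher and 11.1% lower, and in 4 of their linked pairs the partner was called in the same direction and in 0 in the other. Over the whole list, 19 of 31 were called higher and 0 lower (median 0.43). Acot2 and Acot4, acyl-CoA thioesterases of mitochondria and peroxisomes 50.8 kb apart with no bait between (scores 7.32 and 6.88), had 11.2, 9.20, 20.3, 18.8 and 19.4 TPM and 36.2, 25.7, 41.5, 34.7 and 27.6 TPM on LD, against 3.10, 2.49, 5.94, 3.76 and 6.11 and 14.8, 13.9, 26.3, 21.9 and 15.9 on CD. The diets were separate for Acot2, and for Acot4 the lowest LD mouse lay within the CD range. The log2 fold changes were 1.80 ± 0.31 and 0.77 ± 0.19 (SE, edgeR, adjusted p = 0.00204 and 0.0136). Acadm, the medium-chain acyl-CoA dehydrogenase, and Cryz, a quinone reductase 648 kb away in another TAD, had log2 fold changes of 0.62 ± 0.08 and 0.52 ± 0.09 (SE, edgeR, adjusted p = 0.000104 and 0.00117). Hadh, another enzyme of beta-oxidation, rose by 0.68 ± 0.10, while its partner Ostc, 563 kb away, was at 81.0 ± 8.37 and 78.2 ± 6.64 TPM (SD, n = 5) and was not called.

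Of the lipid droplet genes, a list that does not hold Pnpla3 and Pnpla5, 6 of 10 tested at linked promoters were called higher and 0 lower (median log2 fold change 0.67), where 13.8% of all rows were higher and 11.1% lower, and in 0 of their linked pairs were both genes called. Over the whole list, 10 of 18 were called higher and 0 lower (median 0.54). Cidea, which fuses lipid droplets, had 36.1, 38.0, 66.1, 43.0 and 40.1 TPM on LD and 0.696, 1.11, 1.44, 0.600 and 0.494 on CD. Afg3l2, a mitochondrial protease 105 kb away with no bait between (scores 16.49 and 17.68), had 37.2, 31.6, 36.7, 37.1 and 37.7 on LD and 27.1, 32.1, 36.9, 31.6 and 32 on CD. Cidea was separate between diets with a log2 fold change of 5.58 ± 0.27, and Afg3l2 overlapped with 0.10 ± 0.07 (SE, edgeR, adjusted p = 2.58e-06 and 0.343). The droplet coat gene Plin4 rose by 3.54 ± 0.38 and its partner Ccdc94, 156.5 kb away, was not called (SE, edgeR, adjusted p = 0.00024 and 0.117). Dgat1, which makes triglyceride, was not called at 20.1 ± 1.86 and 21.2 ± 1.57 TPM (SD, n = 5), and its partner Slc39a4, a zinc transporter 102 kb away, rose by 1.60 ± 0.30 (SE, edgeR, adjusted p = 0.00415).

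Of 9 sterol and bile acid genes tested at linked promoters, 3 were called lower and 0 higher (median -0.03, and 0.04 on log2(TPM + 1)), and of 12 apolipoprotein genes there 2 lower and 1 higher (median -0.09), beside 24.9% of all rows called in either direction. Over the whole lists, 24 sterol and bile acid genes gave 4 lower and 5 higher (median 0.14). The 20 apolipoprotein genes gave 3 lower and 2 higher (median -0.09). Slc10a1, the bile acid importer of hepatocytes, had 427, 314, 357, 340 and 279 TPM on LD and 643, 692, 755, 745 and 630 on CD. No LD mouse reached the CD range, and the log2 fold change was -1.09 ± 0.11, while its partner Cox16, 519 kb away, was not called (SE, edgeR, adjusted p = 3.44e-05 and 0.593). Apom and its partner Vars, a tRNA synthetase 132 kb away, had log2 fold changes of -0.81 and -0.26, of which only that of Apom was called. Lipc, the hepatic lipase, fell by 0.72 ± 0.08 and its partner Adam10, 275 kb away, had a log2 fold change of 0.09 (SE, edgeR, adjusted p = 3.64e-05 and 0.468). Apoa4 had means of 5115 ± 2809 TPM on LD and 1471 ± 182 on CD (SD, n = 5), and Pafah1b2, 254 kb away, was not called.

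Detoxification and acute-phase genes moved both ways. Of 28 drug metabolism genes tested at linked promoters, 9 were called higher and 4 lower (median 0.05), and of 14 acute-phase and complement genes there 6 higher and 3 lower (median 0.05), beside 13.8% of all rows called higher and 11.1% lower. Over the whole lists, 61 drug metabolism genes gave 19 higher and 9 lower (median 0.08). The 34 acute-phase and complement genes gave 10 higher and 11 lower (median -0.15). Linked pairs with an end in these lists were called the same way in 3 cases and opposite ways in 3 for drug metabolism genes, among the latter Gstm7 with Gstm1 (log2 fold changes -0.35 and 0.78), and in 6 and 4 cases for acute-phase and complement genes. Gstm3 and Gstm1, glutathione transferases 49.5 kb apart with no bait between, had 52.6, 48.3, 213, 200 and 256 TPM and 1128, 1075, 2051, 2218 and 2039 TPM on LD. On CD they had 25.9, 27.5, 20.4, 41.6 and 38.5, and 796, 827, 907, 1072 and 1103. The same 3 LD mice were high for both genes, and the correlation of their levels between mice within diets was 0.937. The log2 fold changes were 2.23 ± 0.52 and 0.78 ± 0.21 (SE, edgeR, adjusted p = 0.014 and 0.0174), and for Gstm1 the lowest LD mouse lay below the highest CD mouse. Serpina3g and Serpina3n, 192 kb apart, had log2 fold changes of 0.87 and 0.38 and were both called. Within the Serpina family, 4 pairs were called the same way and 5 opposite ways.

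Transcription factor, ribosomal protein and immune genes made up the remaining lists, to be read against 24.9% of all rows called, 13.8% higher and 11.1% lower. Of 11 liver transcription factor genes tested at linked promoters, 2 were called higher and 1 lower, and of the 24 in the whole list 4 higher and 5 lower (median -0.19). Foxa3, a hepatocyte factor, and Relb, an NF-kB subunit 606 kb away, had log2 fold changes of -0.51 ± 0.13 and 0.83 ± 0.14 (SE, edgeR, adjusted p = 0.0102 and 0.00081), and Relb had 3.65 to 4.26 TPM on LD and 1.68 to 2.70 on CD. Ribosomal and mitochondrial ribosomal protein genes at linked promoters gave 26 lower and 1 higher calls among 90 tested, with a median of -0.17 (16 lower and 4 higher with a median of -0.09 by limma on log2(TPM + 1)), and their linked partners were called the same way in 4 pairs and the opposite way in 7. Over the whole list, 55 were lower and 2 higher among 172 tested. Of 24 MHC and interferon response genes tested at linked promoters, 6 were called higher and 0 lower, together near the share of all rows called. Over the whole list, 18 of 55 were called higher and 0 lower. Fas with Ifit2, 265 kb apart, were both called with log2 fold changes of 0.48 and 0.37.

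Levels of linked genes varied together only weakly between mice of the same diet, and so did those of unlinked genes. The median correlation over the 10 mice, after removing the diet means, was 0.0736 for linked and 0.0575 for unlinked pairs, and 0.0588 and 0.0549 without pairs of 1 family. The order turned under 50 kb (0.113 against 0.118), from 200 to 400 kb (0.0441 against 0.0450) and in pairs with no bait between (0.0525 against 0.0820), and without pairs of 1 family also from 50 to 100 kb (0.0585 against 0.0644). It was above 0.5 in 16.7% and 14.3% of pairs. Among pairs described above it was -0.77 in Vars with Apom and 0.94 in Gstm3 with Gstm1. With 5 mice per diet a single such value is imprecise, and no test was made of it.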

How the data were processed

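The authors processed PCHi-C reads with HiCUP, scored pooled replicates with CHiCAGO and deposited 1 list per diet with a CHiCAGO score for each interaction within 1 Mb. Per the labels and the study's methods, RNA reads were aligned to mm9 with STAR 2.5 and counted on RefSeq genes by strand with featureCounts 1.5.0-p1, and the deposited table holds raw counts per gene. The authors also deposited TPM values, a scale per gene length, and a table of their own comparison of the diets (fold changes and p-values), which was not used. H3K27ac peaks were called with SICER and Hnf4α and C/EBPα peaks with HOMER in each sample; the deposited HOMER signal (normalized tag count) was not compared here, only the overlap of peaks with fragments by at least 1 bp. TADs were called by the authors on pooled Hi-C.

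A bait was given its gene with the highest mean TPM. Levels were compared as log2(TPM + 1). Counts were tested in R 4.3.3 with edgeR 4.0.16 (TMM, filterByExpr, robust quasi-likelihood), and calls needed an adjusted p under 0.05 (Benjamini-Hochberg over all rows tested) with a fold change over 1.2. The edgeR test gives no SE. The SE printed is the absolute log2 fold change divided by the square root of the F statistic of that test. Alternatives used DESeq2 1.42.0, limma 3.58.1 on TPM, other distance steps, other unlinked pairs and the omission of each library. Pair measures were computed in Python 3.11.15 with pandas 2.3.3 and numpy 2.4.6, and checked on simulated data. Sequences were read from NCBIM37, the assembly of mm9. Depth was 31707963 to 39012699 counted pairs per RNA library, and the lists give no read numbers, so that the depth behind a score is unknown.

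Named pairs were those called in the same or in opposite directions with no overlap between diets and the largest smaller fold change (each gene once), those nearest the thresholds or with the highest lower score, up to 3 pairs per pathway list by fold change, and the baits with most partners. Of the pairs under these rules, 2 are not reported here. The members, the lists and these rules were chosen with earlier results of these data known. Replicates of the RNA are separate mice, per the study's methods.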

Additional observations from a re-analysis of the deposited data

Results flagged for a closer look

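In 99 genes of the named pairs, 191 groups of 5 mice were looked at for a mouse apart from the other 4 of its diet, and 17 had one, by a gap to the nearest mouse larger than Dixon's 95% limit. Chance flags about 1 in 20 groups.

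LD mouse 2 was the highest for Hist1h2bn (22.7 TPM, others 14.3 to 15.7), Ms4a6c (12.2, others 4.85 to 6.95), Arhgap30 (6.74, others 3.55 to 4.17) and Cd244 (1.35, others 0.291 to 0.505). This is also the mouse with the highest macrophage marker sum (1995 TPM), whose part was not tested. LD mouse 5 was the highest for Plce1 (7.34 TPM, others 5.2 to 5.64), LD mouse 3 for Cidea (66.1, others 36.1 to 43.0), and LD mouse 2 the lowest for Afg3l2 (31.6, others 36.7 to 37.7).

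On CD, a mouse was the highest for Serpina3c (3.17 TPM, others 0.525 to 1.11), Trim27 (10.8, others 7.86 to 8.28) and 3 genes near 0, namely Als2cr11 (0.0254, others 0), Cdk15 (0.158, others 0 to 0.0366) and Krt28 (0.0391, others 0). A CD mouse was the lowest for Chchd6 (1.65 TPM, others 2.78 to 2.92), Srebf2 (8.03, others 10.03 to 10.3), Idi1 (12.2, others 21.8 to 25.3), Zmynd11 (22.3, others 25.2 to 26.0) and Mrpl16 (55.8, others 59.8 to 60.2). Both Chchd6 and its linked partner Mcm2 were lowest in CD mouse 4.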

How the results depend on the processing

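The excess of linked pairs with both genes expressed (9.75 percentage points) kept its direction in all alternatives run. It was 10.6 against unlinked pairs of baits that take part in a linked pair, 10.9 inside 1 TAD, 8.53 with single-gene baits, 10.3 without pairs of 1 family, 10.6 without pairs of olfactory receptor genes (chosen after seeing the data) and 7.24 at a limit of 5 TPM. The excess of pairs inside 1 TAD (20.1 points) was 19.0 against unlinked pairs of the same baits. That alternative does not remove the contact signal that scores and TADs share. The excess in correlation between mice (0.0161) was 0.0039 without pairs of 1 family, 0.00701 inside 1 TAD, and 0.0139 to 0.0278 when 1 library was left out. The excess of a shared direction (8.45 points) was 5.22 to 10.8 when 1 library was left out, 4.92 with single-gene baits, 5.45 without pairs of 1 family, and, added after seeing the data, 4.77 without pairs of histone genes and 9.23 for pairs at least 50 kb apart. The excess in the correlation of fold changes (0.0494) was 0.0154 with DESeq2, 0.0167 without pairs of histone genes (chosen after seeing the data), 0.0223 with single-gene baits and 0.00898 without pairs of 1 family. The share of pairs with both genes called was lower in linked than in unlinked pairs (-0.83 points). The difference was -1.58 without pairs of 1 family, -1.47 with single-gene baits, -1.25 without pairs of histone genes, -0.21 with DESeq2 and -0.71 to 0.13 when 1 library was left out, and turned to 0.13 without CD mouse 3; the cause was not tested.

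Called genes at linked promoters (1392) numbered 1183 to 1419 when 1 library was left out, 1539 with DESeq2 and 1199 with limma on TPM. Replicate numbers did not pair the mice, since the correlations of deviations of same-numbered mice were -0.07, 0.19, 0.01, 0.01 and -0.04. With the replicate block, 1299 genes were called and the shared direction exceeded that of unlinked pairs by 8.77 points. The 32 genes of the pairs called in the same or opposite directions kept their call and direction in 480 of 480 fits. They had been chosen for separated diets and large changes in these same counts, so that such refits could hardly lose their calls. Taking the lowest score over the lines of a pair left all 12989 pairs.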
